A study of Mus musculus with 34 samples.

Results

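The genes described here are the mouse genes that carry a Zfp number as their symbol, from Zfp1 to Zfp982. They were taken from the array's probe annotation as every gene whose single symbol was Zfp followed by digits, with the pluripotency marker Zfp42 left out, and the brightest probe set stood for the gene. This gave 82 genes of the 8251 measured. The symbol is a naming convention: most of these genes encode proteins with zinc fingers, but a shared name does not make them a pathway. They were measured on one-colour oligonucleotide arrays, on RNA amplified by 2 rounds of in vitro transcription, in cells the submitters class as pluripotent and in somatic cells.

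The 18 pluripotent arrays covered 6 groups, among which the submitters count primordial germ cells, although these are committed to the germ line in the embryo. The inner cell mass (ICM, 3 arrays) was isolated from blastocysts at E3.5 by immunosurgery, embryonic stem cells (ESC, 2 arrays) were male lines at passages 9 to 14, and embryonic germ cells (EGC, 3 arrays) were male lines at passage 19 derived from germ cells at E12.5. Both kinds of line were grown with LIF and serum. Primordial germ cells (PGC) were sorted as Oct4/GFP-positive cells at E11.5 (mixed sex, 4 arrays) and at E13.5 (female, 3 arrays, and male, 3 arrays). The 14 somatic arrays covered 4 groups. SGM, the Oct4/GFP-negative soma of the gonad and mesonephros at E11.5, had 4 arrays, and fibroblasts (MEF) from E13.5 embryos, at passage 2 in serum, had 6. Neural stem cells (NSC, 2 arrays) were neurospheres at passage 1 in EGF from the subventricular zone of 8-week mice. Blood stem cells (HSC, 2 arrays) were side population cells, CD34- and Lin- and positive for Sca-1 and c-Kit, from the bone marrow of 8-week males. All were on a C57Bl/6 background except the ICM, which came from crosses of C57Bl/6 with C3H and, on 1 array, CD1. Strain and group therefore cannot be told apart wherever the ICM is compared. The labels call ICM, SGM, MEF and NSC mixed, like PGC at E11.5. Sex and group therefore cannot be told apart where these groups are compared with the male ESC, EGC or HSC.

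The classical zinc finger is a short loop folded around a zinc ion, and proteins that string several together read DNA sequence. In mammals many such proteins also carry a KRAB domain, which recruits the corepressor Trim28 and histone methyltransferases that silence the bound site. KRAB zinc finger genes multiply by local duplication and lie in clusters, and they are best known for silencing transposable elements and for keeping imprinted marks in early embryos and stem cells. Other bearers of the name do different work: Zfp36 is tristetraprolin, which binds AU-rich elements and speeds mRNA decay, Zfp622 acts in ribosome biogenesis, Zfp598 is a ubiquitin ligase that senses collided ribosomes, and Zfp207 binds spindle microtubules and the checkpoint protein Bub3.

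Promoter windows of 250 bases before the annotated start were found for 68 of the 82 genes, 88 windows in all (RefSeq, GRCm38.p6). They held a median of 14 CG dinucleotides, against 6 over all 32851 windows. The GC box, GGGCGG read on both strands, was present in 48.9% of the genes' windows and 32.7% of all windows. The CCAAT letters, also on both strands, were in 40.9% and 33.8%, and TATAAA was in 7.95% and 12.4%. CACGTG was in 7.95% and 6.02%. The windows of 4 genes are given because the genes they precede recur below: Zfp982 had the widest range across the groups, Zfp36 stood highest in HSC, and Zfp942 and Zfp943 are a head-to-head pair. Capitals mark the GC box, the CCAAT letters or CACGTG on either strand.
Zfp982, chr4:147442864-147443113, plus strand: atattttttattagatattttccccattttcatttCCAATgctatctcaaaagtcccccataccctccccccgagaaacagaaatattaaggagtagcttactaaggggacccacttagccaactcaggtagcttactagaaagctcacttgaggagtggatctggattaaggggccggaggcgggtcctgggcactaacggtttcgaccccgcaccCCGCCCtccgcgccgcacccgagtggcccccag
Zfp36, chr7:28379229-28379478, minus strand: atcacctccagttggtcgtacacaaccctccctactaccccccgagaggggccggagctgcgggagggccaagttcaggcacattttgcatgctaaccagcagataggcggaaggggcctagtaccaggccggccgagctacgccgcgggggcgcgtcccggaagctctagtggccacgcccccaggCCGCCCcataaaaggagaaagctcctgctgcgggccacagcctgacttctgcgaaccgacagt
Zfp942, chr17:21962465-21962714, minus strand: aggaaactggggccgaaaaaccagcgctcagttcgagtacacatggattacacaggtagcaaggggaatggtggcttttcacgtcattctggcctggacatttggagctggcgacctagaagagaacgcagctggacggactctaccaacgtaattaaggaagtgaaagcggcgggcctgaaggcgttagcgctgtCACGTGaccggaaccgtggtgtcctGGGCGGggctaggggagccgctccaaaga
Zfp943, chr17:21962309-21962558, plus strand: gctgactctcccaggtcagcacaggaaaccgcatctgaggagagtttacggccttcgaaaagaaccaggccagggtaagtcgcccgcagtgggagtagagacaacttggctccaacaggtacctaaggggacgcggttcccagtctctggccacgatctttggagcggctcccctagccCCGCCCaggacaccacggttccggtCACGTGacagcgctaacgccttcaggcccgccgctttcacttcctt
Each of the windows shown held a GC box. Zfp982 has 3 windows in the table, of which the first is shown, and the other genes have 1 each. The windows of Zfp942 and Zfp943 overlapped by 94 bases, and the shared stretch carried the same GC box and the same CACGTG, read from opposite strands.

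Array values are log2 signals, so that a difference of 1 is a 2-fold change. Differences were tested with limma in 1 fit over the 10 groups, and a gene is called changed at a Benjamini-Hochberg adjusted p under 0.05 over all 8251 genes. The labels call the arrays of a group biological replicates, and the p-values measure the spread between these arrays only. Because the RNA came from populations, fewer cells of a type and less RNA per cell cannot be told apart. Array medians over all genes lay between 7.57 and 7.79, and the 5 pluripotency markers averaged 10.33 to 11.65 on the pluripotent arrays and 5.38 to 7.18 on the somatic ones. The difference between 3' and 5' actin probe sets, a sign of RNA length, ranged from 0.24 in NSC to 1.86 in EGC as group means, and its part in the results was not tested. Of the 82 genes, 28 (34.1%) lay among the dimmest 25% of all genes by their brightest group, among them Zfp57, Zfp59, Zfp37, Zfp942, Zfp943 and Zfp503.

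**Figure D1:**
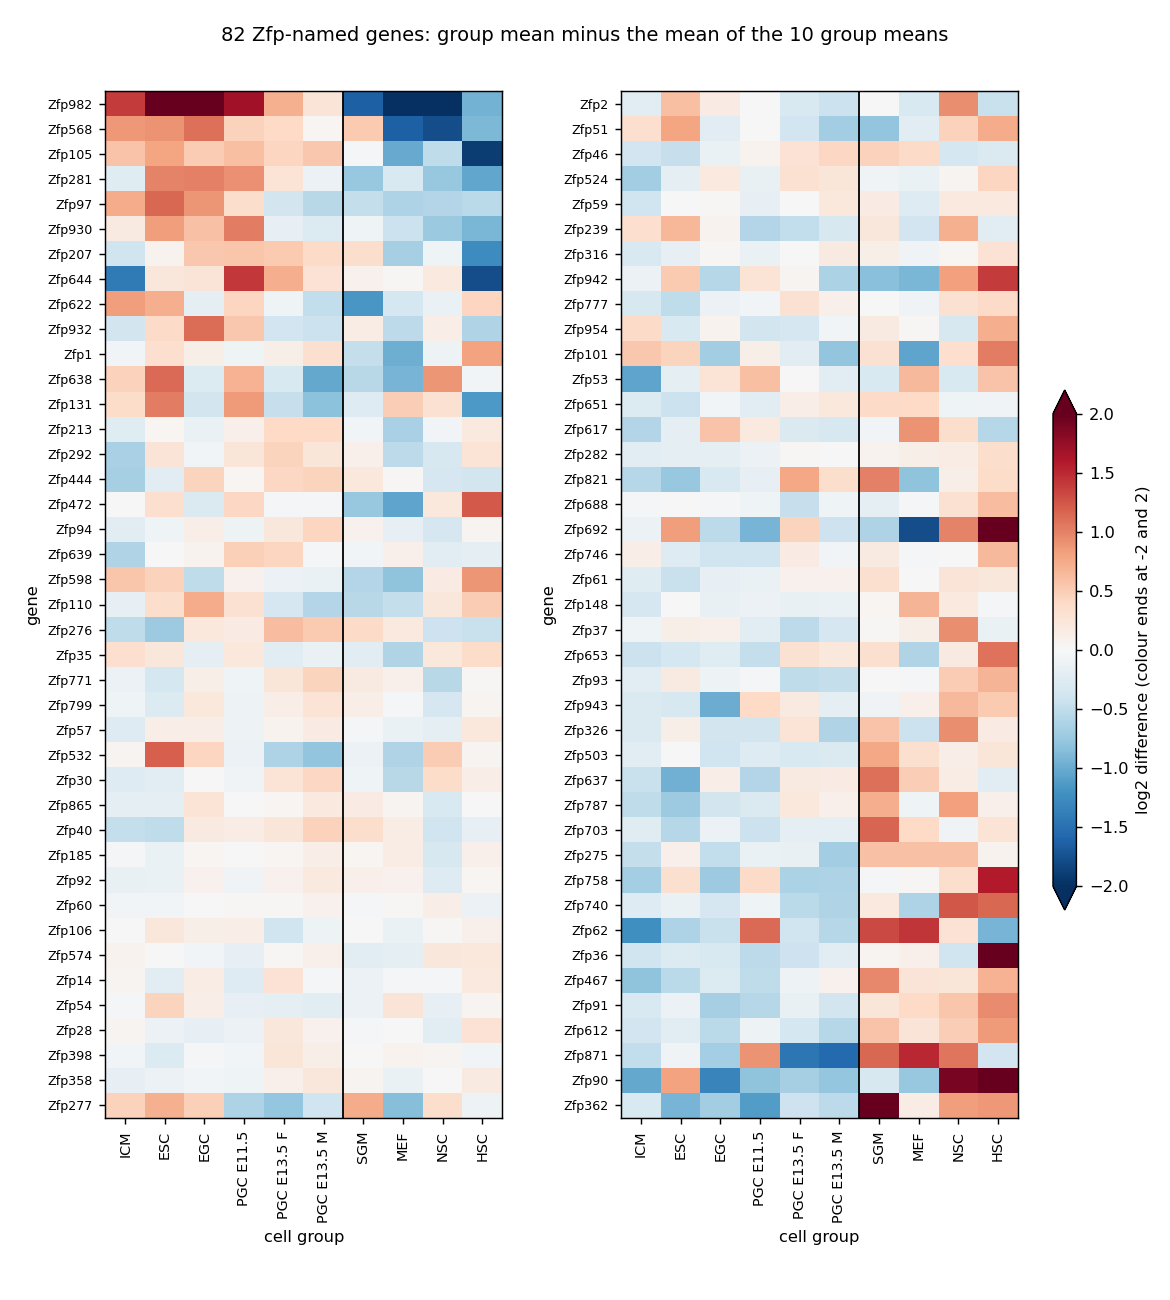
Colour gives each gene's group mean minus the mean of its 10 group means, in log2 units, for the 82 genes (rows, ordered by the difference between pluripotent and somatic groups) in the 10 cell groups (columns, with a line between pluripotent and somatic groups). Few rows follow the line: Zfp982 is high in all 6 pluripotent groups, while Zfp36, Zfp90 and Zfp692 are highest in HSC.

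Nearly all of the genes varied between groups. A moderated F-test over the 10 groups called 80 of 82 (97.6%), against 97.1% of all genes. The distance between a gene's highest and lowest group mean had a median of 1.39 log2 units, against 1.30 over all genes, and it reached at least 1 unit in 57 of the 82 (69.5%; 60.7% of all genes). The widest ranges were those of Zfp982 (5.47), Zfp90 (4.32), Zfp692 (3.88), Zfp362 (3.22), Zfp644 (3.20), Zfp871 (3.08), Zfp36 (2.87), Zfp568 (2.85), Zfp105 (2.68), Zfp62 (2.65), Zfp758 (2.31) and Zfp942 (2.31). At the other end 6 genes moved by less than 0.5 units, among them Zfp60 (0.26), Zfp358 (0.37), Zfp574 (0.45) and Zfp57 (0.46). HSC held the highest mean of 23 genes (28.0%), and it also held the highest mean of 23.5% of all genes. The lowest mean fell in MEF for 14 genes and in ICM for 14 (17.1% each, against 19.8% and 16.2% of all genes).

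The comparison of pluripotent with somatic groups weighted the groups equally. In pluripotent cells 19 of the 82 genes were higher and 36 lower, 67.1% in all, where 63.9% of all genes were called (29.1% higher and 34.9% lower). The median difference was -0.06, against -0.01 over all genes. A change of at least 2-fold was reached by 7 genes, 8.54% against 8.88% of all genes. Zfp982, Zfp568, Zfp105 and Zfp281 were higher, and Zfp362, Zfp90 and Zfp871 were lower.

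Zfp982, a zinc finger gene described in embryonic stem cells, had the largest difference. Its signal was 8.60, 9.26 and 9.08 in ICM, 9.79 and 9.89 in ESC, and 9.33, 9.49 and 10.02 in EGC. In PGC it was 8.97, 9.62, 9.43 and 9.07 at E11.5, 8.04, 8.52 and 8.35 in E13.5 females, and 7.87, 8.11 and 7.57 in E13.5 males. Somatic arrays were lower: 6.08, 5.50, 6.05 and 6.21 in SGM, 4.45 to 5.45 with a median of 5.07 in MEF, 4.16 and 4.59 in NSC, and 7.19 and 6.10 in HSC. The lowest pluripotent array, an E13.5 male, was above the highest somatic array, from HSC. The difference was 3.48 ± 0.13 (SE, 18 and 14 arrays; limma adjusted p = 6.04e-19), or 11.1-fold. Its probe set is of the kind whose probes are shared within a sequence family, so the signal cannot be assigned to Zfp982 alone.

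Only Zfp982 and Zfp91 had no overlap between the pluripotent and somatic arrays, where 1.73% of all genes had none. Zfp91, a ubiquitin ligase of NF-kB signalling, lay at 8.95 to 9.69 (median 9.26) on pluripotent arrays and at 9.86 to 10.68 (median 10.09) on somatic ones. Its difference was -0.90 ± 0.06 (limma adjusted p = 9.61e-14). That call rests on 1 probe set: with the gene's probe sets averaged the difference was -0.06 (limma adjusted p = 0.246).

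Of 17 listed genes with a known part in early embryos or stem cells 5 were measured, and 4 of these were higher in pluripotent groups and none lower (29.1% and 34.9% of all genes). Zfp568, a KRAB repressor of a placental Igf2 transcript, was 8.34 to 9.54 (median 8.79) on pluripotent arrays and 6.38 to 8.93 (median 6.77) on somatic ones. The overlap came from SGM, at 8.91, 8.72, 8.93 and 8.78, while MEF, NSC and HSC all lay at 7.73 or below. The difference was 1.57 ± 0.08 (2.98-fold; limma adjusted p = 2.55e-16). A second, dimmer probe set of the gene differed by 0.24, and with both averaged the difference was 0.90 (adjusted p = 1.22e-13). Between PGC at E11.5 and SGM of the same stage it was -0.06 ± 0.14 (limma adjusted p = 0.743). Zfp281, a zinc finger partner of pluripotency factors, rose by 1.19 ± 0.09 (limma adjusted p = 1.53e-12), and Zfp207 by 0.70 ± 0.07 (limma adjusted p = 4.01e-10). Zfp932 differed by 0.35 ± 0.13 (limma adjusted p = 0.0165), a call lost without NSC replicate 1 (0.29), without HSC replicate 2 (0.24) or without MEF (0.25). Zfp57, which protects imprints, was dim and nearly level, with group means from 6.17 in ICM to 6.63 in HSC and a difference of 0.07 ± 0.05 (limma adjusted p = 0.214). Without NSC and HSC it was 0.11 and passed the test.

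Genes described in spermatogenic cells did not move together. Of the 8 listed 6 were measured, of which 2 were higher in pluripotent groups and 3 lower (29.1% and 34.9% of all genes). Zfp105 was higher by 1.43 ± 0.09 (2.70-fold; limma adjusted p = 2.74e-14), with 9.29 to 10.34 (median 9.94) on pluripotent arrays and 7.27 to 9.43 (median 8.55) on somatic ones. Its lowest somatic values were 7.77 and 7.27 in HSC. Zfp37 was lower by 0.40 log2 units (-0.40 ± 0.08; limma adjusted p = 8.83e-05) and Zfp148 by a similar amount (-0.36 ± 0.07; limma adjusted p = 2.49e-05). Smaller differences of Zfp35 (0.11 ± 0.05) and Zfp59 (-0.13 ± 0.05) were called too. Both calls were lost when any of several single arrays was left out, HSC replicate 1 among them (0.08 and -0.08). That of Zfp35 was also lost with array weights (0.10), and that of Zfp59 with each array centred on its median (-0.09). The first was -0.07 without MEF, and the second was 0.00 without NSC and HSC. Zfp131, a BTB zinc finger gene, did not pass the test (0.25 ± 0.15; limma adjusted p = 0.148), but did without MEF (0.46).

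Of the genes with a part in RNA binding, the mRNA decay factor Zfp36 was lower in pluripotent groups (-0.88 ± 0.06; limma adjusted p = 1.91e-13). It was 8.17 to 8.70 (median 8.44) on pluripotent arrays and 8.39 to 11.59 (median 8.89) on somatic ones, where the NSC arrays overlapped and the HSC arrays stood highest. Without NSC and HSC the difference was -0.43 and was still called. Zfp106, an RNA-binding splicing regulator, kept to group means of 9.19 to 9.83.

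The 3 genes that were at least 2-fold lower in pluripotent cells differed in their somatic pattern. Zfp362 was low on every pluripotent array, at 5.87 to 7.16 (median 6.49), and 7.07 to 9.51 (median 7.74) on somatic ones, a difference of -1.66 ± 0.08 (limma adjusted p = 3.63e-16). Zfp90, a KRAB zinc finger gene, differed by -1.58 ± 0.07 (limma adjusted p = 7.5e-17), but this came from NSC (7.29 and 7.25) and HSC (8.46 and 8.27): SGM and MEF lay at 4.41 to 5.28, and without NSC and HSC the difference was -0.09 (limma adjusted p = 0.334). Zfp871 differed by -1.40 ± 0.14 (limma adjusted p = 1.83e-09), with overlapping arrays. The corepressor gene Trim28, on which KRAB proteins depend, was 1.07 ± 0.08 higher in pluripotent cells (limma adjusted p = 1.5e-12), and of 20 measured genes of its silencing machinery 15 were higher and 3 lower (29.1% and 34.9% of all genes), with a median difference of 0.47, against -0.01 over all genes. The only larger differences in this list were those of the remodeller Smarcad1 (1.14 ± 0.11; limma adjusted p = 9.13e-10) and the histone-binding Rbbp4 (1.08 ± 0.07; limma adjusted p = 1.67e-13). With probe sets averaged the value of Smarcad1 was 0.65.

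**Figure D2:**
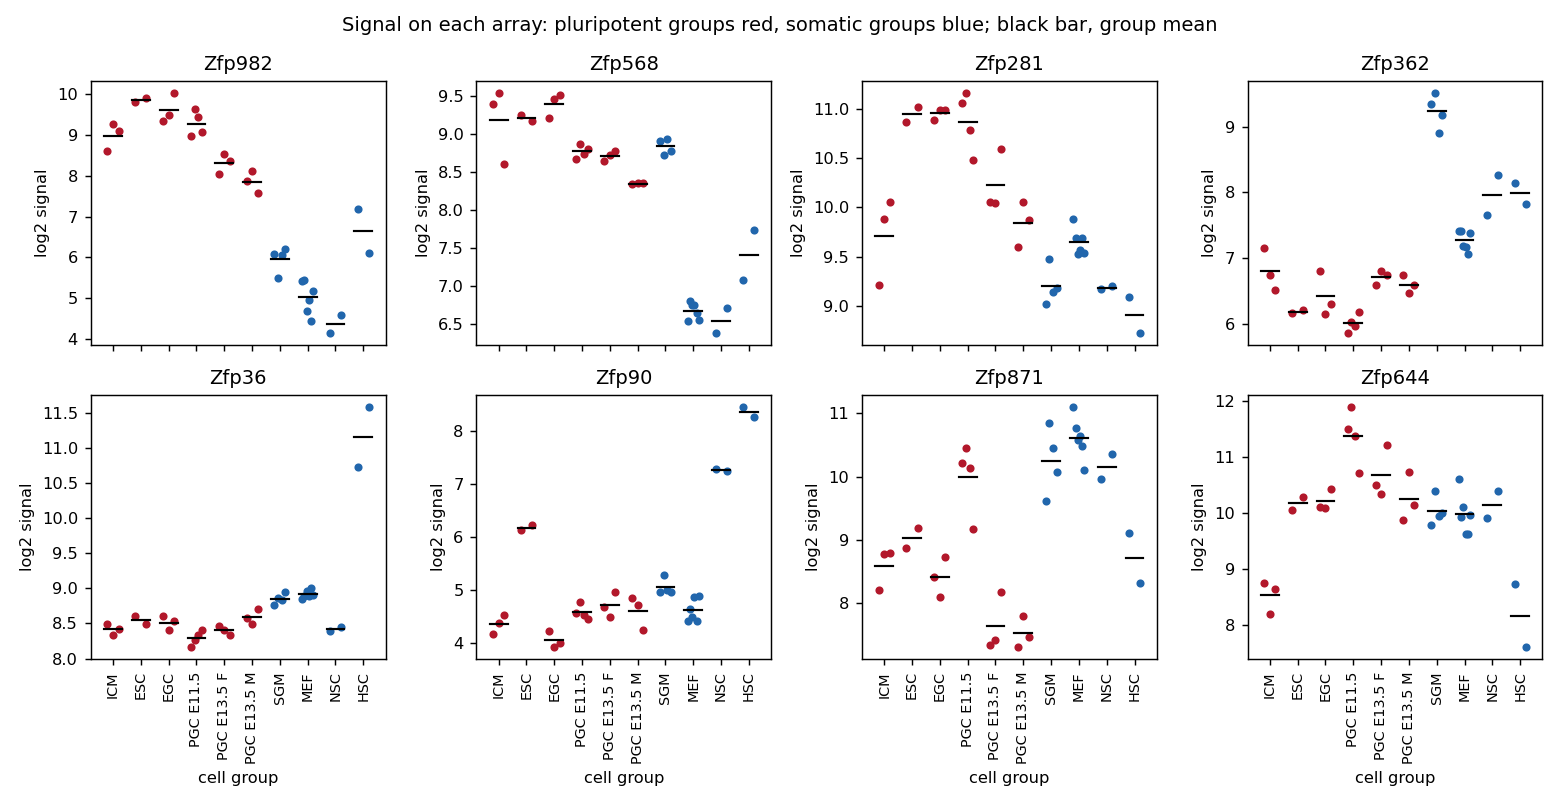
Each point is 1 array's log2 signal (vertical axis) in the 10 cell groups (horizontal axis), for 8 genes; red marks pluripotent and blue somatic groups, and black bars are group means. Zfp982 separates the pluripotent from the somatic groups, Zfp568 is as high in SGM as in PGC, and Zfp36 and Zfp90 reach their highest values in HSC.

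At E11.5, germ cells and somatic cells were parted by the Oct4/GFP reporter, and the comparison sets the germ cell against the soma of gonad and mesonephros of the same stage. Of the 82 genes 20 were higher in PGC and 29 lower, 59.8% against 50.2% of all genes (23.2% higher and 26.9% lower). At least 2-fold changes were found for 17 genes, 9 higher and 8 lower (20.7%, against 16.6% of all genes). The PGC and SGM arrays did not overlap for 50 of the 82, and for 47.9% of all genes. The 4 erythroid marker genes measured averaged 11.61 to 12.20 in SGM and 6.77 to 8.43 in PGC, and 6 immediate-early genes 10.01 to 10.63 and 8.26 to 8.71. The part of blood cells and of handling in these differences was not tested.

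Higher in the germ cells were Zfp982 (3.31 ± 0.23, 9.92-fold; limma adjusted p = 1.99e-12), Zfp281 and Zfp622. Zfp281 was 11.06, 11.16, 10.78 and 10.48 in PGC and 9.02, 9.48, 9.14 and 9.18 in SGM. No array overlapped, and the difference was 1.67 ± 0.16 (limma adjusted p = 8.92e-10). Zfp622 was 9.62, 9.34, 9.53 and 8.64 in PGC against 7.61, 7.83, 7.63 and 7.63 in SGM, a difference of 1.60 ± 0.16 (limma adjusted p = 1.17e-09). Zfp644, a partner of the histone methyltransferases G9a and GLP, rose by 1.33 ± 0.26 (limma adjusted p = 6.88e-05), and the nuclear nucleic acid-binding protein gene Zfp638 by 1.26 ± 0.24 (limma adjusted p = 7e-05). With the probe sets of each gene averaged, Zfp622 differed by 1.03 and Zfp638 by 0.61, both still called. Zfp472, Zfp930, Zfp131 and Zfp942 rose by 1.10 to 1.18.

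Lower in the germ cells were Zfp362, Zfp637 and Zfp703. Zfp362 was 5.87, 6.03, 5.97 and 6.18 in PGC and 9.34, 9.51, 8.90 and 9.18 in SGM. This was the largest fall, -3.22 ± 0.15 (9.33-fold lower; limma adjusted p = 3.36e-16). Zfp637 was 8.71, 8.48, 8.60 and 9.23 in PGC and 10.58, 10.31, 10.47 and 10.34 in SGM (-1.67 ± 0.15; limma adjusted p = 1.85e-10). Both measured genes of the NET family of corepressors, known from brain and limb development, were lower. Zfp703 fell from 8.82, 8.29, 8.27 and 8.38 in SGM to 6.70, 6.79, 6.88 and 7.0 in PGC (-1.60 ± 0.15; limma adjusted p = 3.14e-10), and its relative Zfp503, a dim probe set, differed by -1.02 ± 0.16 (limma adjusted p = 5.55e-06). Zfp467, known for steering marrow stroma between fat and bone, was 2.76-fold lower (-1.46 ± 0.11; limma adjusted p = 7.46e-12), and the Polycomb-binding Zfp277 was 2.57-fold lower (-1.36 ± 0.15; limma adjusted p = 1.85e-08). Zfp821 and Zfp787 differed by -1.17 ± 0.20 and -1.01 ± 0.12. With probe sets averaged Zfp503, Zfp277 and Zfp787 differed by -0.58, -0.81 and -0.58, all still called. Zfp36 was 0.57 log2 units lower in PGC (-0.57 ± 0.11; limma adjusted p = 5.83e-05).

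Between E11.5 and E13.5 germ cells enter the gonad's programme of sex-specific development. This comparison shares the E11.5 arrays with the one above. At E13.5, both sexes weighted equally, 31 of the 82 genes were higher and 27 lower, 70.7% against 50.8% of all genes (30.9% higher and 19.9% lower). The median over all genes was itself 0.12, and that of these genes 0.08. Arrays of the 2 stages did not overlap for 35 of the 82 and for 27.5% of all genes. Markers of other cell types rose too: 3 of 5 of mesenchyme (median 0.37), 3 of 5 of endothelium (0.23), 3 of 5 of gonad soma (0.30), 1 of 4 erythroid genes (0.47) and 3 of 6 immediate-early genes (0.40), and none of these markers fell. The mesenchyme markers averaged 7.52 to 7.99 at E11.5, 7.86 to 8.19 in E13.5 females and 8.19 to 8.48 in males. All 5 germ cell markers were lower at E13.5 (median -1.28), as were 4 of 5 pluripotency markers (median -0.78). Not every gene of the germ cell list marked germ cells alone. Ddx4 averaged 6.75 in PGC at E11.5, 6.60 in ICM and 6.26 in HSC, and Kit was highest in HSC (9.69). Prdm1 and Tfap2c had their highest means in PGC at E11.5 (8.49 and 12.06). The part of these marker differences in the results was not tested. The 7 changes of at least 2-fold were all decreases (8.54%, against 6.41% of all genes): Zfp871, Zfp62, Zfp131, Zfp638, Zfp930, Zfp982 and Zfp758. Most changes of this size were decreases over all genes too, 479 against 50 increases.

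Zfp871 was 10.22, 10.45, 10.13 and 9.17 at E11.5, 7.34, 7.42 and 8.18 in E13.5 females, and 7.32, 7.81 and 7.47 in males. The stages did not overlap, and the fall was 5.27-fold (-2.40 ± 0.24; limma adjusted p = 3.19e-08). Zfp62 fell from 9.77, 10.10, 9.66 and 8.77 to 7.83, 7.91 and 8.41 in females and 7.71, 8.09 and 7.82 in males (-1.61 ± 0.28; limma adjusted p = 4.24e-05). In both genes the fourth E11.5 array was the lowest of its group. Zfp131 differed by -1.48 ± 0.25 and Zfp638 by -1.36 ± 0.22, with arrays of the stages overlapping, and Zfp982 by -1.19 ± 0.21 (limma adjusted p = 3.76e-05, 1.86e-05 and 6.64e-05). With its probe sets averaged Zfp638 differed by -0.67 (adjusted p = 8.21e-05). Zfp281 fell by less (-0.84 ± 0.15; limma adjusted p = 4.51e-05).

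The largest rises without overlap were smaller. Zfp637 rose by 0.76 ± 0.14 (limma adjusted p = 6.14e-05), to 9.60, 9.63 and 9.32 in females and 9.65, 9.30 and 9.56 in males. Zfp653 rose by 0.74 ± 0.12 (limma adjusted p = 2.27e-05) and Zfp821 by 0.73 ± 0.18 (limma adjusted p = 0.00171). Zfp692 rose further, by 0.94 ± 0.14 (limma adjusted p = 4.71e-06), with overlapping arrays. All 6 genes measured by family-shared probe sets (Zfp51, Zfp53, Zfp97, Zfp930, Zfp932 and Zfp982) were lower at E13.5, with a median of -0.89, while the median over all 443 genes with such probe sets was 0.16 and 14.0% of them were lower. This grouping was chosen after the values were seen. The calls of Zfp51 and Zfp53 were lost without E11.5 replicate 2, at -0.39 and -0.50, and that of Zfp51 also without male replicate 3, at -0.46.

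Few of the genes differed between female and male germ cells at E13.5. Only 6 of 82 were called, 5 higher in females and 1 lower (7.32%, against 8.62% of all genes), none by 2-fold (1.14% of all genes), and 15 (18.3%) had an unadjusted p under 0.05, against 22.5% of all genes. Of all genes 6.29% were higher and 2.33% lower. The female and male arrays, 3 against 3, did not overlap for 22 of the 82 and for 34.8% of all genes. The actin 3' to 5' difference was 0.67 to 1.25 on female arrays and 0.21 to 0.51 on male ones. Of 5 germ cell markers 3 were higher in females and 1 lower. The part of RNA length and of these markers was not tested. Zfp326, which links splicing to transcript elongation, was 8.42, 8.40 and 8.82 in females and 7.71, 7.84 and 7.46 in males. The groups did not overlap, and the difference was 0.88 ± 0.23 (limma adjusted p = 0.0143), but the call was lost without female replicate 3 (0.74; adjusted p = 0.105) or male replicate 3 (0.77; adjusted p = 0.0907). Zfp692 was 6.71, 6.63 and 6.21 against 5.73, 5.67 and 5.60, a difference of 0.85 ± 0.17 (limma adjusted p = 0.00173). Zfp942, one of the head-to-head pair, was 4.65, 4.50 and 5.08 against 3.97, 4.16 and 4.02 (0.70 ± 0.16; limma adjusted p = 0.00504), and without female replicate 3 the difference was 0.53 (adjusted p = 0.0682). The X-linked gene Zfp275 differed by 0.53 ± 0.10 (limma adjusted p = 0.000492). It was the only one called of the 3 X-linked genes among the 82. Their median was -0.10, against 0.02 over all measured X-linked genes. The call of Zfp101 (0.58 ± 0.16) was lost without female replicate 3 (0.49) or without male replicate 1 or 3 (0.54 in both cases). That of Zfp688 (-0.37 ± 0.12) was lost when any of several arrays was left out, female replicate 3 among them (-0.32). Leaving out that replicate reduced the count to 2 genes, and the share of all genes called to 4.71%.

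Stem cell lines were compared with the embryonic cells they derive from. In ESC against ICM 23 of 82 genes were higher and 4 lower, 32.9% against 27.8% of all genes (15.3% higher and 12.6% lower). The median was 0.21, against 0.04 over all genes. With so few arrays 42 of the 82 did not overlap, and neither did 46.8% of all genes. With each array centred on its own median the split was 16 higher and 6 lower, and 27.5% of all genes were then called. The counts were 15 without ESC replicate 1 and 14 without ESC replicate 2, and 12 when only these 2 groups were fitted, and 16.5%, 17.9% and 9.40% of all genes were then called. A change of at least 2-fold was seen for 4 genes, 4.88% against 6.08% of all genes. Trophectoderm markers averaged 7.14 to 9.23 (median 9.17) on ICM arrays and 6.51 to 6.83 on ESC arrays. Primitive endoderm markers averaged 8.55 to 8.78 on ICM arrays and 7.49 to 7.64 on ESC arrays. In each of these lists 4 of 5 markers were lower in ESC, and their part in the result was not tested.

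Zfp90 was 6.13 and 6.23 in ESC and 4.16, 4.38 and 4.52 in ICM, a rise of 1.83 ± 0.17 (3.55-fold; limma adjusted p = 5.23e-09). Zfp644 was 10.05 and 10.29 against 8.75, 8.20 and 8.63 (1.64 ± 0.33; limma adjusted p = 0.000478), and Zfp281 was 10.87 and 11.02 against 9.21, 9.88 and 10.05 (1.24 ± 0.21; limma adjusted p = 5.42e-05). Zfp532 rose by 1.14 ± 0.14 (limma adjusted p = 8.38e-07). No ESC array of these 4 genes overlapped an ICM array. Lower in ESC was Zfp954, at 7.17 and 7.13 against 7.74, 7.85 and 7.93 (-0.69 ± 0.11; limma adjusted p = 2.85e-05). Falls of Zfp362 (-0.62 ± 0.19; limma adjusted p = 0.0184) and Zfp637 (-0.51 ± 0.19; limma adjusted p = 0.0448) were called but lost without either ESC array or without ICM replicate 1, at -0.64 to -0.44 and -0.60 to -0.43, and that of Zfp637 also without ICM replicate 3 (-0.43) or any of several arrays of other groups (-0.51). Zfp982 was 0.86 ± 0.30 higher in ESC (limma adjusted p = 0.034). This call was lost without either ESC array or without ICM replicate 1 (0.67 to 0.91). It was also lost with each array centred on its median (0.82) or with array weights (0.84).

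EGC against ESC compares lines of germ cell and blastocyst origin, and it shares the ESC arrays with the comparison above. In EGC 15 of the 82 genes were higher and 18 lower, 40.2% against 39.4% of all genes (20.8% higher and 18.6% lower). Of 9 changes of at least 2-fold 8 were decreases (11.0% of the genes changed that much, against 8.44% of all genes). Over all genes 455 changes of this size were decreases and 241 increases. Arrays did not overlap for 53 of the 82 and for 66.1% of all genes. Of the immediate-early genes 4 of 6 were higher in EGC (median 1.16; array means 9.73 to 10.05, against 8.92 to 8.94 in ESC), as were 3 of 5 mesenchyme markers (8.36 to 8.48, against 7.82 to 8.13), and the actin 3' to 5' difference averaged 1.86 in EGC and 1.56 in ESC. Their part in the results was not tested. Zfp90 was 4.22, 3.93 and 3.99 in EGC, 4.39-fold below ESC (-2.14 ± 0.17; limma adjusted p = 6.49e-10). Zfp638 was 7.60, 7.89 and 8.05 in EGC and 9.07 and 9.45 in ESC (-1.41 ± 0.31; limma adjusted p = 0.000783; -0.87 with its probe sets averaged), and Zfp131 was 8.97, 8.87 and 9.22 against 10.43 and 10.38 (-1.39 ± 0.36; limma adjusted p = 0.00321). Zfp692, Zfp101, Zfp942, Zfp758 and Zfp51 differed by -1.35 to -1.02. The ribosome sensor Zfp598 was 1.95-fold lower (-0.96 ± 0.11; limma adjusted p = 3.07e-07).

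Higher in EGC was Zfp637, at 9.67, 9.23 and 9.49 against 8.45 and 8.29 (1.09 ± 0.19; limma adjusted p = 6.35e-05). Zfp276 was 7.17, 7.29 and 7.29 against 6.29 and 6.33 (0.94 ± 0.09; limma adjusted p = 1.45e-08). Neither gene's groups overlapped. The rise of Zfp617, 0.77 ± 0.24 (limma adjusted p = 0.012), was lost without ESC replicate 1 (0.73), ESC replicate 2 (0.82) or EGC replicate 3 (0.63).

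**Figure D3:**
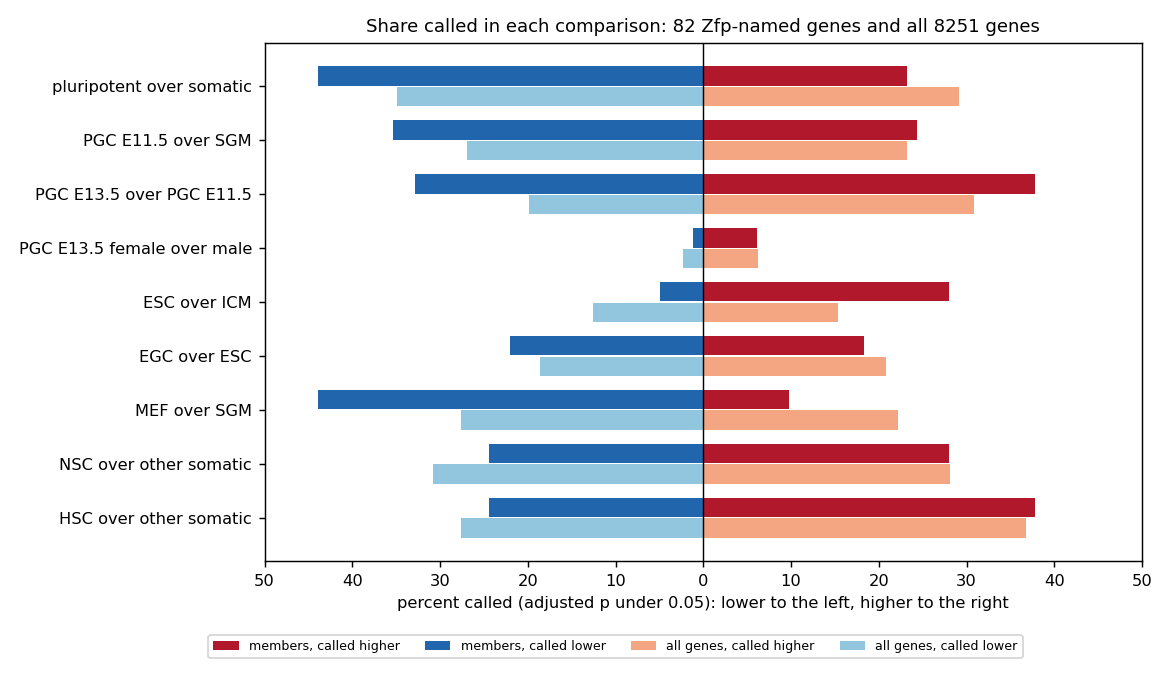
Bars to the right give the percent of genes called higher and bars to the left the percent called lower (adjusted p under 0.05) in each of the 9 comparisons, in dark colours for the 82 Zfp-named genes and in pale colours for all 8251 genes. In MEF over SGM 36 of the 82 genes were lower and 8 higher (27.6% and 22.2% of all genes). In ESC over ICM 23 were higher and 4 lower (15.3% and 12.6% of all genes).

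Among somatic cells, cultured fibroblasts were set against the soma of the E11.5 gonad and mesonephros, whose arrays also served the germ cell comparison. In MEF 8 of the 82 genes were higher and 36 lower, 53.7% against 49.8% of all genes (22.2% higher and 27.6% lower). With arrays centred on their medians the split was 11 higher and 27 lower, and 4007 of all 8251 genes were then called. On MEF arrays 13 probe sets read above 16, the scanner limit in log2, and 0 did outside MEF. The labels name no further scaling of those arrays, and its part in the comparisons that include MEF was not tested. All 7 changes of at least 2-fold were decreases (8.54%, against 14.8% of all genes). Over all genes 540 changes of this size were decreases and 683 increases. Arrays did not overlap for 37 of the 82 and for 41.5% of all genes. All 4 measured erythroid markers were lower in MEF (median -6.31; array means 6.31 to 6.51, against 11.61 to 12.20 in SGM), as were 4 of 5 gonad soma markers (7.54 to 7.73, against 9.15 to 9.44), 3 of 5 of endothelium (6.53 to 6.76, against 7.31 to 7.48) and 3 of 6 immediate-early genes (9.34 to 9.49, against 10.01 to 10.63), of which 1 was higher. All 5 mesenchyme markers were higher (12.96 to 13.43, against 11.49 to 11.97). The part of cell composition in the results was not tested. Zfp568 was 6.54 to 6.80 (median 6.69) in MEF, 4.48-fold below SGM (-2.16 ± 0.13; limma adjusted p = 3.83e-14). Zfp362 was 7.07 to 7.42 (median 7.28) in MEF (-1.96 ± 0.14; limma adjusted p = 1.39e-12), and Zfp821 was 6.83 to 7.19 (median 6.97) against 9.09, 8.63, 8.62 and 8.87 in SGM (-1.81 ± 0.18; limma adjusted p = 1.47e-09). Zfp277, Zfp101, Zfp692 and Zfp207 differed by -1.60 to -1.01. With probe sets averaged Zfp568 differed by -1.17 and Zfp277 by -0.94, both still called. The rises were led by Zfp53 (0.95 ± 0.21), Zfp617 (0.95 ± 0.17) and Zfp622 (0.83 ± 0.14), with limma adjusted p of 0.000429, 2.74e-05 and 1.72e-05, and Zfp622 was 0.44 with its probe sets averaged. Trim28 was 1.72 log2 units lower in MEF (-1.72 ± 0.13; limma adjusted p = 8.43e-12), and 13 of the 20 silencing genes were lower and 1 higher (27.6% and 22.2% of all genes). The DNA methyltransferase Dnmt3a (-1.60 ± 0.15) and Uhrf1 (-1.46 ± 0.15), which brings DNA methylation to newly copied strands, followed Trim28 in size (limma adjusted p = 5.98e-10 and 1.71e-09). With probe sets averaged Dnmt3a differed by -0.77.

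Neural stem cells were compared with the mean of the other 3 somatic groups. Of the 82 genes 23 were higher and 20 lower, 52.4% against 58.9% of all genes (28.1% higher and 30.8% lower). At least 2-fold changes were found for 8 genes (9.76%, against 17.9% of all genes), and arrays did not overlap for 13 of the 82 and for 27.7% of all genes. Zfp638 was 8.88 and 9.14 in NSC, above every other somatic array (1.40 ± 0.27; limma adjusted p = 5.61e-05). Zfp2 rose by 1.18 ± 0.10 (limma adjusted p = 1.83e-10) and Zfp37 by 0.92 ± 0.16 (limma adjusted p = 2.42e-05), both without overlap. With probe sets averaged Zfp638 differed by 0.65 (adjusted p = 0.000434) and Zfp37 by 0.49 (adjusted p = 0.00882). Zfp90 (1.26 ± 0.15) and Zfp692 (1.09 ± 0.16) were also higher, but HSC was higher still, and without MEF the value of Zfp692 was 0.25 (adjusted p = 0.257). Zfp740 was 2.00-fold higher. Lower in NSC, with overlapping arrays, were Zfp982 (-1.50 ± 0.26) and Zfp568 (-1.09 ± 0.15, and -0.66 with its probe sets averaged). Zfp36 was 8.39 and 8.45 in NSC, below every other somatic array (-1.22 ± 0.12; limma adjusted p = 8.72e-10). Zfp703 differed by -0.68 ± 0.16 (limma adjusted p = 0.000594). Zfp771 differed by -0.66 ± 0.09 (limma adjusted p = 6.12e-07), but by -0.16 with its probe sets averaged (adjusted p = 0.123).

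Blood stem cells were compared in the same way. Against the mean of the other 3 somatic groups 31 of the 82 genes were higher and 20 lower, 62.2% against 64.4% of all genes (36.8% higher and 27.6% lower). A change of at least 2-fold was seen for 17 genes, 11 of them higher (20.7%, against 21.4% of all genes). Over all genes 770 such changes were increases and 992 decreases. Arrays did not overlap for 30 of the 82 and for 34.1% of all genes. Zfp90 was 8.46 and 8.27 in HSC and at most 7.29 on any other array, a difference of 2.72 ± 0.15 (6.59-fold; limma adjusted p = 3.4e-15). Zfp692, known as a target of the energy-sensing kinase AMPK, was 8.22 and 8.13, 2.56 ± 0.16 higher (limma adjusted p = 1.63e-13). Zfp36 was 10.73 and 11.59, with 8.76 to 9.00 in SGM and MEF, 2.43 ± 0.12 higher (5.38-fold; limma adjusted p = 3.33e-16). Zfp36 is itself an immediate-early gene in many cells. The 6 immediate-early markers averaged 10.34 and 10.98 on the HSC arrays, 10.01 to 10.63 in SGM, 9.34 to 9.49 in MEF and 9.50 to 9.58 in NSC. All 5 macrophage markers were higher in HSC, by 0.35 to 3.55 (median 0.38). They averaged 7.11 to 7.24 there, 5.95 to 6.28 in SGM, 6.39 to 6.58 in MEF and 5.83 to 5.87 in NSC. Much of this gap came from Lyz2, with means of 9.15 in HSC, 5.08 in SGM, 6.77 in MEF and 4.95 in NSC. The part of either marker list in the result was not tested.

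Other genes higher in HSC were Zfp472 (1.77 ± 0.17), Zfp942 (1.70 ± 0.15), Zfp758 (1.47 ± 0.19), Zfp1 (1.33 ± 0.12) and Zfp598 (1.29 ± 0.10), all without overlap. Zfp101 (1.18 ± 0.15) and Zfp653 (1.13 ± 0.15) followed. Zfp982, high in pluripotent cells, was also higher in HSC than in the other somatic groups (1.52 ± 0.26; limma adjusted p = 9.86e-06), with overlapping arrays. Lower were Zfp62, at 8.03 and 7.01 (-1.94 ± 0.34; limma adjusted p = 1.44e-05), Zfp644, at 8.72 and 7.61 (-1.88 ± 0.28; limma adjusted p = 1.56e-06), and Zfp871, at 9.11 and 8.33 (-1.62 ± 0.29; limma adjusted p = 2.53e-05). In each of these 3 genes the 2 HSC arrays lay below every other somatic array and were themselves well apart. Zfp105, Zfp131 and Zfp207 differed by -1.38 ± 0.18, -1.33 ± 0.31 and -1.12 ± 0.14.

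The genes are spread unevenly over the mouse chromosomes. Chromosome 7 carries 19 of the 82 and 654 of all measured genes, and chromosome 17 carries 15 and 436. Chromosome 8 carries 9 and 409, chromosome 6 carries 8 and 482, and chromosome 4 carries 5 and 497. Chromosome 11, with 705 measured genes, carries 4 of the 82. Such counts do not show whether the genes lie close together within a chromosome. The counts below are a description, without a test, and the 3 comparisons shown were chosen after the values were seen. In PGC against SGM at E11.5, 8 of the 15 chromosome 17 genes were higher and 1 lower (median 0.42), where 24.1% of all genes of that chromosome were higher and 23.2% lower (median -0.02). Of the 19 chromosome 7 genes 1 was higher and 7 lower (median -0.13), where 22.5% of all were higher and 26.3% lower (median -0.05). From E11.5 to E13.5, 4 of the chromosome 17 genes rose and 9 fell (median -0.46), against 33.3% and 15.1% of all 436 measured genes of that chromosome (median 0.14). On chromosome 7, 11 rose and 2 fell (median 0.23), against 257 and 82 of all 654 (median 0.16). In EGC against ESC, 2 were higher and 7 lower on chromosome 17 (median -0.61), against 19.0% and 16.1% of all genes there (median 0.01). On chromosome 7, 7 were higher and none lower (median 0.22), against 21.9% and 16.4% (median 0.05). Only 4 of the 15 chromosome 17 genes were outside the dimmest 25%, and their medians in these comparisons were 0.41, -0.33 and -0.62. Zfp51, Zfp53 and Zfp97 are read by family-shared probe sets, and Zfp54 by another kind without a plain name. The other 11 chromosome 17 genes had medians of 0.16, -0.39 and -0.63. In PGC against SGM 5 of these 11 were higher and 1 lower.

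**Figure D4:**
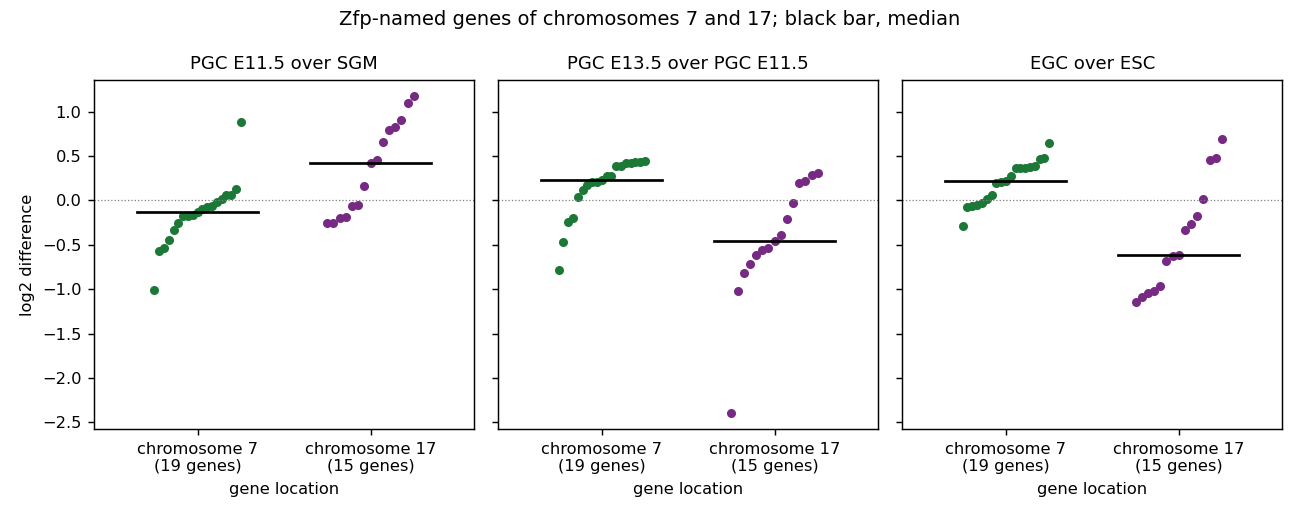
Points are the log2 differences (vertical axis) of the 19 genes on chromosome 7 and the 15 on chromosome 17 in 3 comparisons, with black bars at the medians. The medians have opposite signs on the 2 chromosomes in each panel: -0.13 and 0.42, 0.23 and -0.46, and 0.22 and -0.61.

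Physical neighbours did not share 1 pattern. Over the 10 group means, as a description, Pearson's r was 0.58 for the head-to-head pair Zfp942 and Zfp943. Among pairs with no protein-coding gene between them r ran from -0.26 (Zfp92 and Zfp275) to that 0.58. The extremes lay in pairs further apart. They were 0.81 for Zfp282 and Zfp777, with 2 genes between, and -0.55 for Zfp93 and Zfp94, with 1 between. Zfp799 and Zfp871, also with 1 between, had -0.54. The genes on either side of the shared 94 bases had partly different profiles. In HSC Zfp942 was 6.06 and 6.10 while Zfp943 was 6.58 and 5.44, and in MEF Zfp942 was at its lowest, 3.53 to 3.91, while Zfp943 was 5.42 to 5.96. Probe sets of the same gene differed too: of 25 dimmer probe sets, 7 followed their gene's brightest one with r above 0.5 over the groups, and 6 had r below 0.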

How the data were processed

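Gene expression was measured on 32 arrays, 2 to 6 per group. The deposited values are log2 signals made by the authors with RMA, per the labels; they give no counts, so that the number of arrays limits the precision. The table has 34 columns, and 2 of them (ESC replicate 3 and PGC E11.5 replicate 5) equal the mean of their group's other columns within 1e-06 and were left out. Probe sets were named from the platform annotation with 1 symbol (10833 of 12488; 396 had several and 1193 none; 66 were controls), and symbols were updated through gene IDs in the GRCm38.p6 gene table (10817 matched). The brightest probe set stood for each gene. limma 3.58.1 (R 4.3.3; lmFit and eBayes, no filter, 22 residual degrees of freedom) was fitted to all 10 groups, and the fit was tested on simulated data. On the 6 probe sets naming a Zfp gene among several, no gene was assigned.

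Genes named in the text are the 12 with the widest range of group means, the 3 largest called rises and falls without overlap in each comparison, the genes of role lists and, in 2 comparisons, the 3 silencing genes with the largest change; others were named after their values were seen. The members and lists were chosen with earlier results of these data known. Alternatives were another normalization, median centring, other probe set rules, a filter on dim genes, array weights, a replicate block and leaving out arrays. A grouping by protein domains was planned and not run, as protein sequences were not used here.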

Additional observations from a re-analysis of the deposited data

Results flagged for a closer look

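In groups of 4 or more arrays, 114 groups of 38 named genes were examined for an array far from the rest, and 2 stood apart; chance alone would mark about 1 group in 20. Both are SGM replicate 2. Zfp90 was 5.28 there and 4.96 to 5.00 on the other 3 arrays, a gap of 0.863 of the range. Zfp622 was 7.83 there and 7.61 to 7.63 on the others, a gap of 0.891 of the range.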

How the results depend on the processing

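Counts of called genes stayed within 1.5 times the reported ones under the normalization, centring, probe set, dim gene, array weight and replicate block alternatives that were run, or just at that limit, except in ESC over ICM, where 12 genes were called with only the compared groups fitted. Asking for at least 2-fold as well left 7 genes for pluripotent over somatic, 17 for PGC E11.5 over SGM, 7 for E13.5 over E11.5, 0 for female over male, 4 for ESC over ICM, 9 for EGC over ESC, 7 for MEF over SGM, 8 for NSC and 17 for HSC over the other somatic groups. Leaving out 1 array at a time gave 2 to 7 genes for female over male and 14 to 28 for ESC over ICM; the other counts ranged over 47 to 58, 42 to 50, 48 to 60, 24 to 36, 37 to 46, 29 to 45 and 44 to 53 in the order above. Of 122 differences named in the text, 102 kept call and direction under every alternative run. Directions turned only for small values: Zfp35 in pluripotent over somatic was -0.07 without MEF, and Zfp568 in PGC over SGM, not called, was 0.06 with its probe sets averaged and Zfp131 in pluripotent over somatic, not called, was -0.02 without NSC and HSC; the cause was not tested.

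Replicate numbers recur across groups. The residuals of same-numbered PGC E11.5 and SGM arrays correlated at -0.353, 0.521, 0.165 and 0.332 for replicates 1 to 4, those of ESC and ICM at 0.161 and 0.176, and over all pairs of groups the range was -0.566 to 0.521. In no pair of groups with 3 or more shared numbers were all correlations above 0.1, and the labels name no shared litter or day, so the numbers were not taken as pairs. With the replicate block 54 genes were called for pluripotent over somatic, 47 for PGC over SGM and 6 for female over male, and the call of Zfp59 in pluripotent over somatic was lost (-0.11). With 2 or 3 arrays in most groups, small differences can be missed.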
